A study of Mus musculus with 30 samples.

Results

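The HoxA cluster genes *Hoxa2*, *Hoxa3*, *Hoxa4*, *Hoxa5*, *Hoxa6*, *Hoxa7*, *Hoxa9*, *Hoxa10*, *Hoxa11* and *Hoxa13* were followed in mouse forelimb buds by polyA RNA-sequencing. They are 10 of the 50833 genes in the deposited count table. They were chosen by gene symbol and not by a cutoff on a measured value, though earlier results of these data were known. Pregnant wild-type Swiss Albino females received a single injection at embryonic day E10.5 and forelimb buds were collected 1, 6, 12, 18 and 24 h later. The injection held either DMSO in phosphate-buffered saline, as control, or the porcupine inhibitor Wnt-C59 (C59), which blocks WNT secretion. C59 was given in phosphate-buffered saline with DMSO, methylcellulose and Tween-20, so the solutions differed in more than the inhibitor. There were 3 libraries for each treatment and time point, each from 1 pair of forelimb buds of an embryo, and no genetic alteration was involved.

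HOX proteins are homeodomain transcription factors that give cells their position along the body and limb axes. The genes of a cluster lie in a row in the order in which they are activated, a property called collinearity. In the limb bud, the *Hoxa9* to *Hoxa11* genes are active early and act in the upper and lower limb segments, while *Hoxa13* comes on last, in the distal mesenchyme that forms the hand plate (autopod). *Hoxa2* to *Hoxa7* act mainly in the hindbrain, branchial arches and trunk, and several of them are also transcribed in proximal limb mesenchyme. The question addressed here is how the levels of the 10 genes moved over 24 h of normal development, and how they differed after WNT secretion was blocked.

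The 10 genes span 98.5 kb of chromosome 6 (mm10, minus strand), from *Hoxa2* at chr6:52162417-52164831 to *Hoxa13* (ENSMUSG00000038203) at chr6:52257694-52260880. Between them lie *Hoxa4* (ENSMUSG00000000942) at chr6:52189671-52191753, *Hoxa7* (ENSMUSG00000038236) at chr6:52214498-52221854, *Hoxa10* (ENSMUSG00000000938) at chr6:52231197-52240854 and *Hoxa11* (ENSMUSG00000038210) at chr6:52242106-52245810, the other genes to which the results below turn. Exons of *Hoxa11* share 35.0% of their bases with the opposite-strand transcript *Hoxa11os*, and 22.6% of *Hoxa3*, 20.2% of *Hoxa7* and 16.0% of *Hoxa4* exon bases also lie under exons of the other strand. Without a stated strand of counting, reads from such bases cannot be told apart, and the other 6 genes share none. The promoters of *Hoxa13* and *Hoxa11* are shown because these members were called against the controls most often, and that of *Hottip* because this noncoding transcript starts 1895 bases beyond the start of *Hoxa13*, on the other strand. Each line gives the 250 bases before the transcription start, 5′ to 3′, from RefSeq (GRCm38.p6).
Hoxa13 promoter, minus strand, chr6:52260881-52261130: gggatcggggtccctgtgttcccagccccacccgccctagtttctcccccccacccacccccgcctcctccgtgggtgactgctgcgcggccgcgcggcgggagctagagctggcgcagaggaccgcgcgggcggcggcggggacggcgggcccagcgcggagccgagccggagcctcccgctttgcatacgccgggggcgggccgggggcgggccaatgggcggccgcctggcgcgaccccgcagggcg
Hottip promoter, plus strand, chr6:52262525-52262774: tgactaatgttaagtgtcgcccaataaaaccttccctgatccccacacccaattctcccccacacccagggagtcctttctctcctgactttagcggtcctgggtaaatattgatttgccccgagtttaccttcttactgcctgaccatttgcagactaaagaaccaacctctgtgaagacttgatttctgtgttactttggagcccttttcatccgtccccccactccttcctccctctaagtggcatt
Hoxa11 promoter, minus strand, chr6:52245811-52246060: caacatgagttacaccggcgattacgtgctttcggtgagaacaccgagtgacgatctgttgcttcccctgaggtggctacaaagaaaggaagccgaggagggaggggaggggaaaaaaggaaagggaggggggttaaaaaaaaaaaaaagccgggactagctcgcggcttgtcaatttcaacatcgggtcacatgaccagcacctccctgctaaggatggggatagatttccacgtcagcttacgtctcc
The *Hoxa13* promoter is 80.0% G and C, a share reached by 1.23% of 32851 promoters of the same length, whose median is 52.4%. The *Hottip* and *Hoxa11* promoters hold 48.4% and 52.0%. The letters CTTTGAT, the core of motifs bound by the TCF/LEF factors of WNT signaling, occur on either strand in 3.21% of all promoters, and TCGTAAA, a motif of HOX13 proteins, in 0.478%. Neither is in these windows, nor in the windows of the other members found in the table (9 of 10, without *Hoxa4*), so no letters are in capitals. The motifs do not overlap each other.

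The libraries held 18188636 to 38974885 counts, and all 30 pairs of replicates differed by more than sampling noise. The forelimb gene *Tbx5* stood between 35.8 and 71.3 FPKM (fragments scaled to transcript length and library size, comparable between genes) in every library. It was higher in all C59 than in all DMSO libraries at 12 h (56.6 to 70.9 against 50.7 to 54.2 FPKM). The same held at 24 h (65.9 to 71.3 against 60.9 to 63.7 FPKM), while the treatments overlapped at 1, 6 and 18 h. At 18 h, C59 replicate 3 had the lowest CPM (counts scaled to library size) of its group for *Hoxa9*, *Hoxa10*, *Hoxa11* and *Hoxa13*, and the values of the 2 last genes without it are given beside the result. This library also had the highest sums of its group for 4 erythroid markers (8289 against 4892 and 5245 FPKM) and 6 ectoderm markers (151 against 123 and 119 FPKM). Transcripts of 4 Y-linked genes were not balanced, summing to 0 FPKM in all 3 DMSO libraries at 6 h and to 19.8 to 33.2 FPKM in the C59 libraries, so the sex of the embryos and the treatment cannot be told apart at 6 h. At 1 h the sums were 0.047 to 9.03 and 21.2 to 38.2 FPKM, and their part in the results was not tested. Since whole limb buds were sequenced, fewer cells of a type and less RNA per cell cannot be told apart.

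In wild-type controls, *Hoxa10* had the highest level of the 10 genes. At 1 h, *Hoxa10* stood at 72.6 ± 5.06 FPKM (SD, n = 3), followed by *Hoxa9* at 44.4 ± 2.04 and *Hoxa11* at 41.6 ± 2.79, whose ranges overlapped. *Hoxa7* at 20.2 ± 0.552 FPKM and *Hoxa5* at 15.9 ± 2.22 FPKM came next, each apart from its neighbours in this order. *Hoxa13* at 7.66 ± 0.668 FPKM lay beside *Hoxa3* at 7.22 ± 0.451 FPKM, and *Hoxa2*, *Hoxa4* and *Hoxa6* lay between 3.59 and 4.57 FPKM with overlapping ranges. *Hoxa10* took 32.8% of the summed FPKM of the 10 genes at 1 h and 37.4% at 24 h.

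By 24 h the order had changed in controls. *Hoxa13* stood in the third place at 23.6 ± 1.34 FPKM, above *Hoxa9* at 20.7 ± 1.91 FPKM, and the ranges of the pair did not overlap (22.2 to 24.9 against 18.5 to 22.04 FPKM). In C59-treated forelimb buds at 24 h, *Hoxa9* stood at 20.2 ± 2.50 FPKM and *Hoxa13* at 14.8 ± 1.56 FPKM, again without overlap and in the opposite order. By counts per kilobase of exon *Hoxa13* stood above *Hoxa9* in both treatments, so this reversal was seen on FPKM alone. *Hoxa10* and *Hoxa11* held the first and second places by FPKM in both treatments at 24 h, while by counts per kilobase *Hoxa13* was second and *Hoxa11* was at place 3 in DMSO and 4 in C59. The share of *Hoxa13* in the summed FPKM rose from 3.46% ± 0.0861 (SD, n = 3) in DMSO at 1 h to 12.4% ± 0.530 at 24 h, against 8.28% ± 0.367 in C59 at 24 h. Counts per kilobase of exon kept *Hoxa10* first in all 10 groups but placed 4 to 9 of the 10 genes elsewhere in the order, so places below the first depend on the measure.

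**Figure D1:**
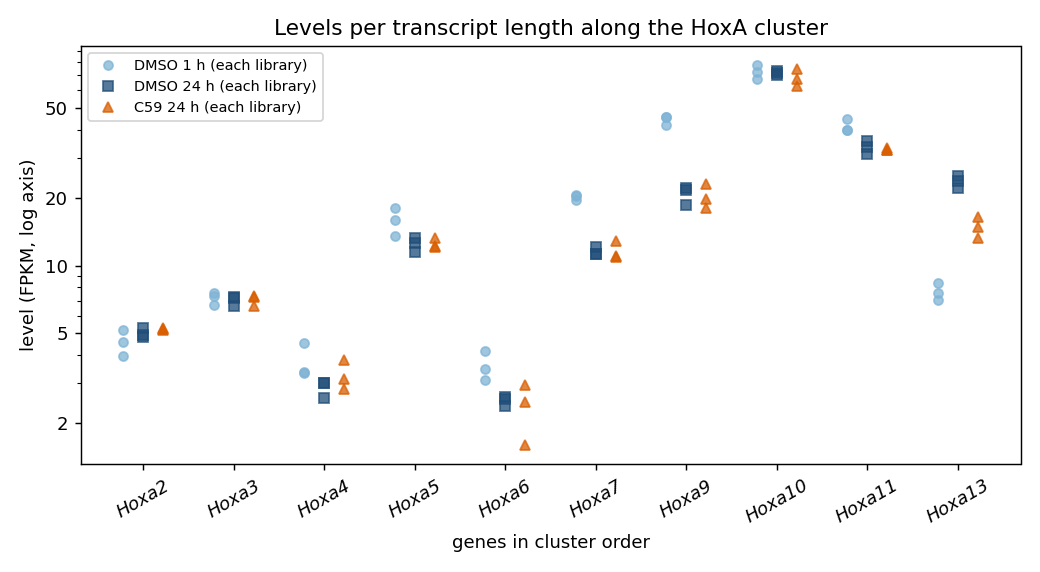
Level of each HoxA gene in FPKM on a log axis, with the genes in cluster order and 1 symbol per library for DMSO 1 h, DMSO 24 h and C59 24 h (3 libraries each). *Hoxa10* is highest throughout, and *Hoxa13* shows the widest gap between 1 h (7.04 to 8.37 FPKM) and 24 h (22.2 to 24.9 FPKM in DMSO).

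**Figure D2:**
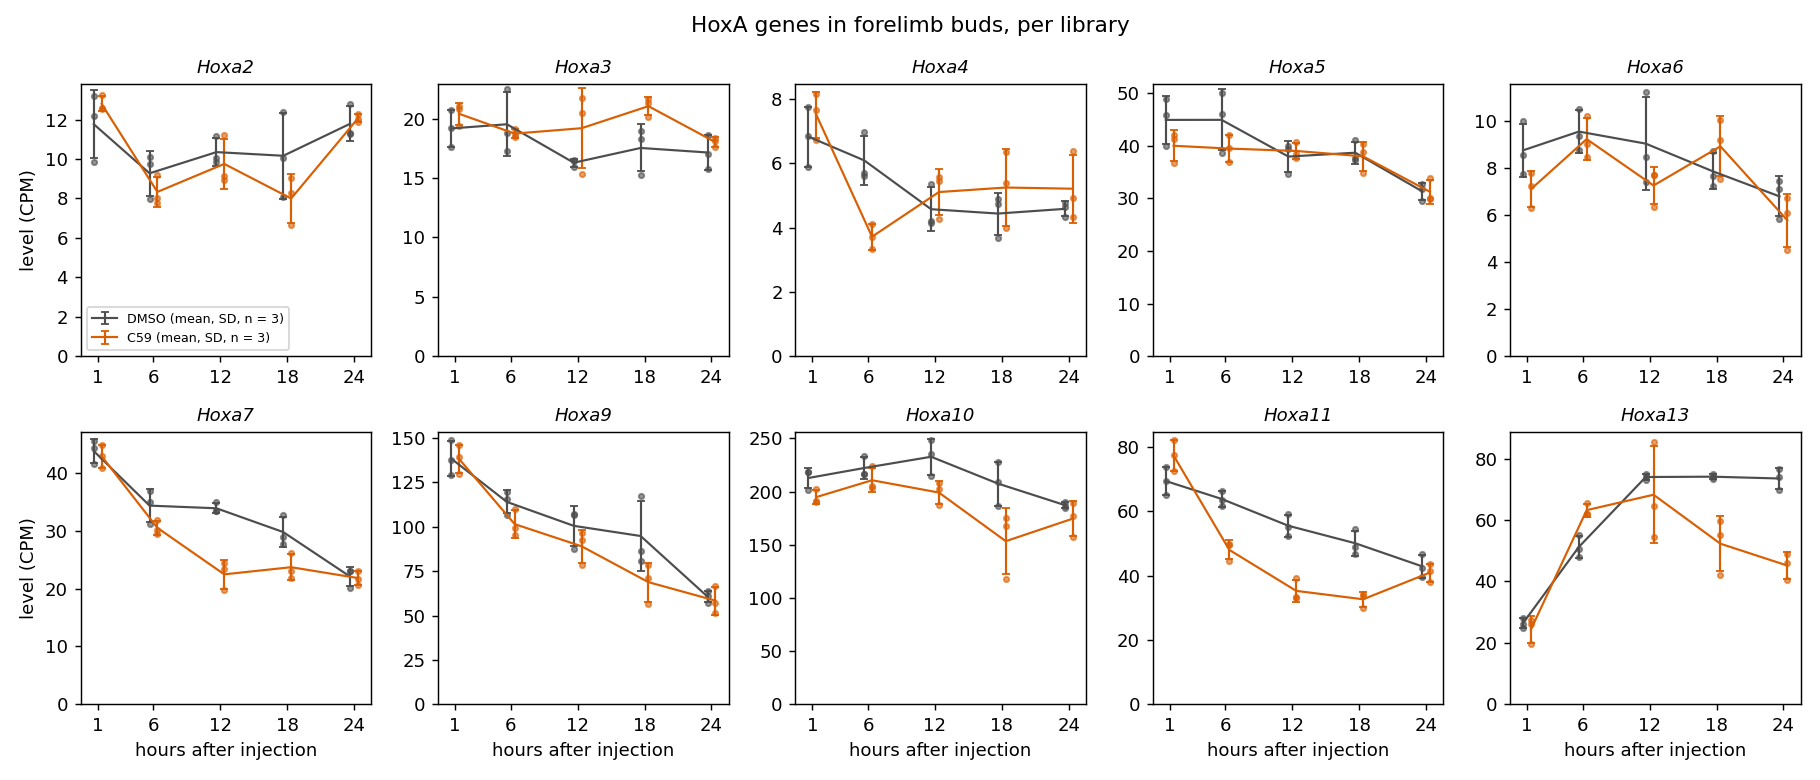
Level of each HoxA gene in CPM against hours after injection, with points for libraries, lines for means and bars for the SD (n = 3), each vertical axis starting at 0. *Hoxa11* is lower in C59 at 6, 12 and 18 h, and *Hoxa13* lies above the controls at 6 h but below them at 24 h.

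Over the 24 h of control development, *Hoxa13* rose and most other members fell. *Hoxa13*, the gene of the autopod, stood at 28.2, 26.2 and 25.0 CPM in the DMSO libraries at 1 h and at 76.7, 74.0 and 69.9 CPM at 24 h. All late libraries lay above all early ones, and the change was 2.89-fold (log2 fold change 1.53 ± 0.06, SE). Its adjusted p, from the quasi-likelihood test of edgeR with the Benjamini-Hochberg correction over all genes, was 6.87e-11, and all adjusted p below come from the same method unless another is named. The control mean rose from 26.5 CPM (1 h) through 51.2 CPM (6 h) to 74.0 CPM (12 h), and was then 74.1 CPM (18 h) and 73.6 CPM (24 h).

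*Hoxa9*, which acts in the upper limb segment, fell over the same time. It stood at 138, 149 and 129 CPM in DMSO at 1 h and at 63.6, 57.2 and 61.1 CPM at 24 h, 2.197-fold lower (log2 fold change -1.14 ± 0.06, adjusted p 6.90e-10). *Hoxa7*, a gene of trunk identity, fell from 43.8 ± 2.06 to 22.1 ± 1.70 CPM (log2 fold change -0.93 ± 0.07, adjusted p 8.92e-08). *Hoxa11*, a gene of the lower limb segment, fell from 69.4 ± 4.42 to 42.9 ± 3.62 CPM (log2 fold change -0.64 ± 0.07, adjusted p 1.74e-06). On log2(FPKM + 1) its change was -0.31 (limma, adjusted p 0.00269). *Hoxa4* and *Hoxa5* fell by 0.51 ± 0.15 and 0.46 ± 0.08 on the log2 scale (adjusted p 0.00740 and 0.000160), and the change of *Hoxa4* was -0.29 on log2(FPKM + 1) (limma, adjusted p 0.0479). *Hoxa10* fell by 0.13 ± 0.04 (adjusted p 0.0209), a call that was lost in 8 of 16 alternatives, among them leaving out DMSO 1 h replicate 1 or 2 or DMSO 24 h replicate 2 or 3 (adjusted p 0.0537 to 0.0765). On log2(FPKM + 1) the change of *Hoxa10* was -0.02 (limma, adjusted p 0.724).

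In all, 7 of 10 members were called between 1 h and 24 h in DMSO, where 59.3% of all genes tested were called, and 6 of them fell, where 29.2% of all genes fell. With a log2 fold change beyond 1 as a further condition, *Hoxa9* and *Hoxa13* remained, where 12.0% of genes met both conditions. *Hoxa2*, a hindbrain and branchial arch gene, and *Hoxa3*, known for the pharyngeal arches, had log2 fold changes of 0.06 ± 0.12 and -0.10 ± 0.09 and were not called. *Hoxa6* had -0.31 ± 0.14 (adjusted p 0.0696).

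In C59-treated forelimb buds the change over the day had the same sign for 9 of the 10 members, and 6 were called, where 54.1% of all genes were. Of these, 5 fell, where 25.7% of all genes fell. *Hoxa9* fell by 1.19 ± 0.09, *Hoxa7* by 0.92 ± 0.08 and *Hoxa11* by 0.86 ± 0.08 on the log2 scale (adjusted p 5.97e-08, 3.40e-07 and 3.86e-07). That of *Hoxa11* was -0.45 on log2(FPKM + 1) (limma, adjusted p 4.81e-05). *Hoxa4* and *Hoxa5* fell by 0.47 ± 0.16 and 0.30 ± 0.08 (adjusted p 0.0272 and 0.00777), and the call of *Hoxa4* was lost without C59 1 h replicate 1 or 2 or C59 24 h replicate 2 or 3 (adjusted p 0.0697 to 0.09998). That of *Hoxa5* was lost on log2(FPKM + 1), at -0.17 (limma, adjusted p 0.118). Only *Hoxa9* was called beyond a log2 fold change of 1, where 13.6% of genes met both conditions.

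After C59, the mean of *Hoxa13* was 24.4 CPM (1 h), 63.2 CPM (6 h) and 68.3 CPM (12 h). It was then lower, at 52.3 CPM (18 h) and 45.2 CPM (24 h). Between 1 h and 24 h, *Hoxa13* rose less after C59. Its libraries stood at 19.5, 27.5 and 26.1 CPM at 1 h and at 40.6, 49.1 and 45.9 CPM at 24 h, a log2 fold change of 0.95 ± 0.12 (adjusted p 9.82e-06), against 1.53 ± 0.06 in DMSO. The change differed between the treatments by -0.58 ± 0.14 on the log2 scale (edgeR interaction contrast, adjusted p 0.0275). *Hoxa13* was the 1 member called in this contrast, where 4.18% of all genes were called. The call was lost in 8 of 22 alternatives, including leaving out DMSO 1 h replicate 2, C59 1 h replicate 2 or 3, or DMSO 24 h replicate 1 or 2 (adjusted p 0.0517 to 0.0906). *Hoxa11* differed by -0.22 ± 0.11 (adjusted p 0.248), and the other 8 members by -0.09 to 0.16.

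**Figure D3:**
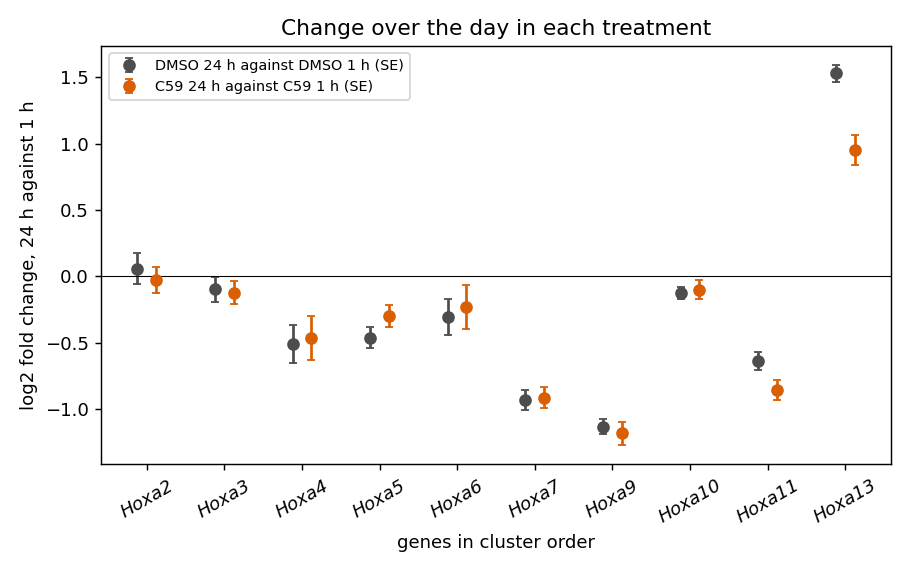
Log2 fold change from 1 h to 24 h for each HoxA gene in cluster order, with DMSO and C59 side by side and bars for the SE of the edgeR fit. *Hoxa13* is the highest point in both treatments, at 1.53 in DMSO and 0.95 in C59, and *Hoxa9* the lowest, at -1.14 and -1.19.

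At 1 h after injection no member was called between C59 and DMSO, where 2.75% of all genes were. Without adjustment, *Hoxa11* (p 0.0149) and *Hoxa10* (p 0.0229) were below 0.05, with log2 fold changes of 0.16 ± 0.06 and -0.12 ± 0.05. DESeq2 also called 0 members at 1 h.

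At 6 h, *Hoxa11* and *Hoxa4* were lower and *Hoxa13* was higher in C59-treated forelimb buds. *Hoxa11* stood at 66.3, 63.7 and 61.6 CPM in DMSO and at 49.5, 44.6 and 49.96 CPM in C59, without overlap (log2 fold change -0.40 ± 0.06, adjusted p 0.000372). *Hoxa13* stood at 50.7, 55.2 and 47.9 CPM in DMSO and at 65.7, 62.0 and 62.0 CPM in C59, again without overlap (log2 fold change 0.32 ± 0.06, adjusted p 0.00279). The call of *Hoxa13* was lost when all 30 libraries shared 1 estimate of the spread (adjusted p 0.0976, the highest of its 16 alternatives, the lowest being 0.000310).

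*Hoxa4*, which acts mainly in the axial skeleton, was a low gene here with 77 to 172 counts per library at 1 and 6 h. It stood at 6.96, 5.71 and 5.60 CPM in DMSO at 6 h and at 3.33, 4.12 and 3.70 CPM in C59, without overlap (log2 fold change -0.71 ± 0.16, adjusted p 0.00802). On log2(FPKM + 1) the difference was -0.45 (limma, adjusted p 0.0178). In all, 3 of 10 members were called at 6 h, where 19.6% of all genes were, and 2 of them were lower, where 11.4% of genes were lower. *Hoxa5*, *Hoxa7* and *Hoxa9* had log2 fold changes of -0.18, -0.16 and -0.15 with adjusted p of 0.154, 0.139 and 0.0863. Without DMSO 6 h replicate 2, *Hoxa7* and *Hoxa9* were called as well (-0.22 and -0.19, adjusted p 0.0376 and 0.0240), which made 5 members. The 4 limb mesenchyme markers summed to 451 to 480 FPKM in DMSO and 254 to 273 FPKM in C59 at 6 h, the 4 cartilage precursor markers to 102 to 108 and 134 to 156, and the 5 muscle precursor markers to 27.7 to 29.5 and 42.3 to 47.8, with none at 0, and their part in the 3 calls was not tested.

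At 12 h, *Hoxa11*, *Hoxa7* and *Hoxa10* were lower in C59-treated forelimb buds. *Hoxa11* stood at 55.2, 52.3 and 59.1 CPM in DMSO and at 33.5, 33.1 and 39.3 CPM in C59, 1.57-fold lower and without overlap (log2 fold change -0.65 ± 0.08, adjusted p 7.68e-05). *Hoxa7* stood at 33.4, 33.3 and 34.9 CPM in DMSO and at 24.4, 23.3 and 19.7 CPM in C59, 1.51-fold lower and without overlap (log2 fold change -0.59 ± 0.09, adjusted p 0.000253). *Hoxa10* fell from 233 ± 17.0 to 199 ± 10.4 CPM (log2 fold change -0.22 ± 0.06, adjusted p 0.0105). Its call was lost without C59 12 h replicate 2 (adjusted p 0.0516), with upper-quartile factors (0.0671) and with all 30 libraries (0.0713). These 3 of 10 members were called at 12 h and all were lower, where 47.5% of all genes were called and 25.5% were lower.

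*Hoxa13* at 12 h depended on 1 library. The DMSO libraries stood at 72.9, 74.0 and 75.2 CPM and the C59 libraries at 54.6, 64.7 and 85.5 CPM, so the highest C59 library exceeded and the other pair fell below all controls. The log2 fold change was -0.11 ± 0.13 (adjusted p 0.496), and without C59 12 h replicate 3 it was -0.30 (adjusted p 0.00857). Without that library, *Hoxa3* was also called, at 0.39 (adjusted p 0.00714). That library also had the highest erythroid marker sum of its group (10232 against 7138 and 7369 FPKM). Its ectoderm marker sum was the highest too (178 against 128 and 132 FPKM), and the part of these in the result was not tested.

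Marker genes of cell types moved with the treatment at 12 h. All 4 limb mesenchyme markers were detected and summed to 422 to 448 FPKM in DMSO and 218 to 224 FPKM in C59, the 4 cartilage precursor markers to 122 to 130 and 241 to 349 FPKM, and the 6 ectoderm markers to 82.8 to 94.8 and 128 to 178 FPKM, with none at 0. The 5 muscle precursor markers (34.7 to 44.9 and 51.7 to 65.8 FPKM), the 4 endothelium markers (48.1 to 53.7 and 63.9 to 69.8), the 3 macrophage markers (3.30 to 3.56 and 5.19 to 5.95) and the 3 Schwann cell precursor markers (2.999 to 4.21 and 5.34 to 10.2) were also apart, as were the 5 trunk and somite markers, at 44.9 to 48.8 in DMSO and 29.7 to 34.99 in C59. The 2 hindlimb markers were apart as well, at 3.225 to 4.31 FPKM in DMSO and 4.37 to 6.19 FPKM in C59. The part of all these markers in the lower *Hoxa11*, *Hoxa7* and *Hoxa10* levels was not tested.

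At 18 h, *Hoxa11* remained lower. It stood at 54.5, 46.9 and 48.8 CPM in DMSO and at 34.4, 33.5 and 30.1 CPM in C59, without overlap (log2 fold change -0.62 ± 0.11, adjusted p 0.0117). The call was lost without DMSO 18 h replicate 1 or 3 (adjusted p 0.0585 and 0.0681), and on FPKM, where the log2 fold change was -0.35 with a pseudocount of 1 (adjusted p 0.101). At 18 h the 4 limb mesenchyme markers summed to 373 to 398 FPKM in DMSO and 315 to 342 FPKM in C59, the 4 cartilage precursor markers to 133 to 164 and 216 to 249, the 6 ectoderm markers to 92.3 to 101 and 119 to 151, and the 3 macrophage markers to 4.52 to 5.48 and 5.95 to 8.13, with none at 0. Their part in the *Hoxa11* level was not tested. *Hoxa11* was the 1 of 10 members called, where 7.08% of all genes were.

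*Hoxa13* at 18 h missed the threshold. It stood at 73.5, 75.03 and 73.9 CPM in DMSO and at 59.6, 55.0 and 42.3 CPM in C59, without overlap (log2 fold change -0.50 ± 0.13, adjusted p 0.0520). Over 16 alternatives its adjusted p ran from 0.00257 to 0.180, and 8 of them called it. Without C59 18 h replicate 3 the log2 fold change was -0.37 (adjusted p 0.00797), while that of *Hoxa11* was -0.55 (adjusted p 0.00391). *Hoxa7*, *Hoxa9* and *Hoxa10* had log2 fold changes of -0.33, -0.46 and -0.44 with adjusted p of 0.128, 0.136 and 0.128. All 3 were called when all 30 libraries shared 1 estimate of the spread. The biological coefficient of variation was 12.5% in this comparison and 5.41 to 7.52% at the other time points.

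At 24 h, *Hoxa13* was the 1 of 10 members called, where 6.44% of all genes were. It stood at 76.7, 74.0 and 69.9 CPM in DMSO and at 40.6, 49.1 and 45.9 CPM in C59, 1.63-fold lower and without overlap (log2 fold change -0.70 ± 0.08, adjusted p 0.000321). The call held in all 16 alternatives, with log2 fold changes from -0.76 to -0.63 and adjusted p of at most 0.00355. The C59 libraries at 24 h lay nearest to the controls of 6 h, which stood between 47.9 and 55.2 CPM. The C59 libraries at 6 h had stood higher, at 62.0 to 65.7 CPM. The 4 cartilage precursor markers summed to 170 to 193 FPKM in DMSO and 212 to 228 FPKM in C59 at 24 h, and the 4 limb mesenchyme markers to 384 to 405 and 357 to 385 FPKM, with none at 0. The 6 ectoderm markers (116 to 119 and 142 to 155 FPKM) and the 3 macrophage markers (4.46 to 5.43 and 5.59 to 7.23) were higher in all C59 libraries, and the 5 muscle precursor markers (88.8 to 100.4 and 77.1 to 86.3), the 4 endothelium markers (53.7 to 54.5 and 47.8 to 50.5) and the 4 neural tube markers (8.33 to 9.76 and 5.28 to 6.81) lower. Their part in the *Hoxa13* level was not tested.

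*Hoxa11* was no longer separated at 24 h, with 42.4, 46.7 and 39.6 CPM in DMSO and 37.9, 43.5 and 41.5 CPM in C59 (log2 fold change -0.07 ± 0.08, adjusted p 0.695). *Hoxa7* was at 22.1 ± 1.70 and 21.8 ± 1.24 CPM (log2 fold change -0.01 ± 0.09, adjusted p 0.955). No member differed from the controls by more than 1 on the log2 scale at any of the 5 times, while the share of all genes that did so and were called was 0.283% (1 h), 1.17% (6 h), 4.95% (12 h), 1.29% (18 h) and 0.819% (24 h).

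The median log2 fold change of the 10 members against the controls was -0.0036 (1 h), -0.15 (6 h), -0.14 (12 h), -0.34 (18 h) and -0.03 (24 h). The median over all genes tested lay between 0.00 and 0.02 in the same comparisons. The widest shift of the members was at 18 h, where 1 member was called.

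**Figure D4:**
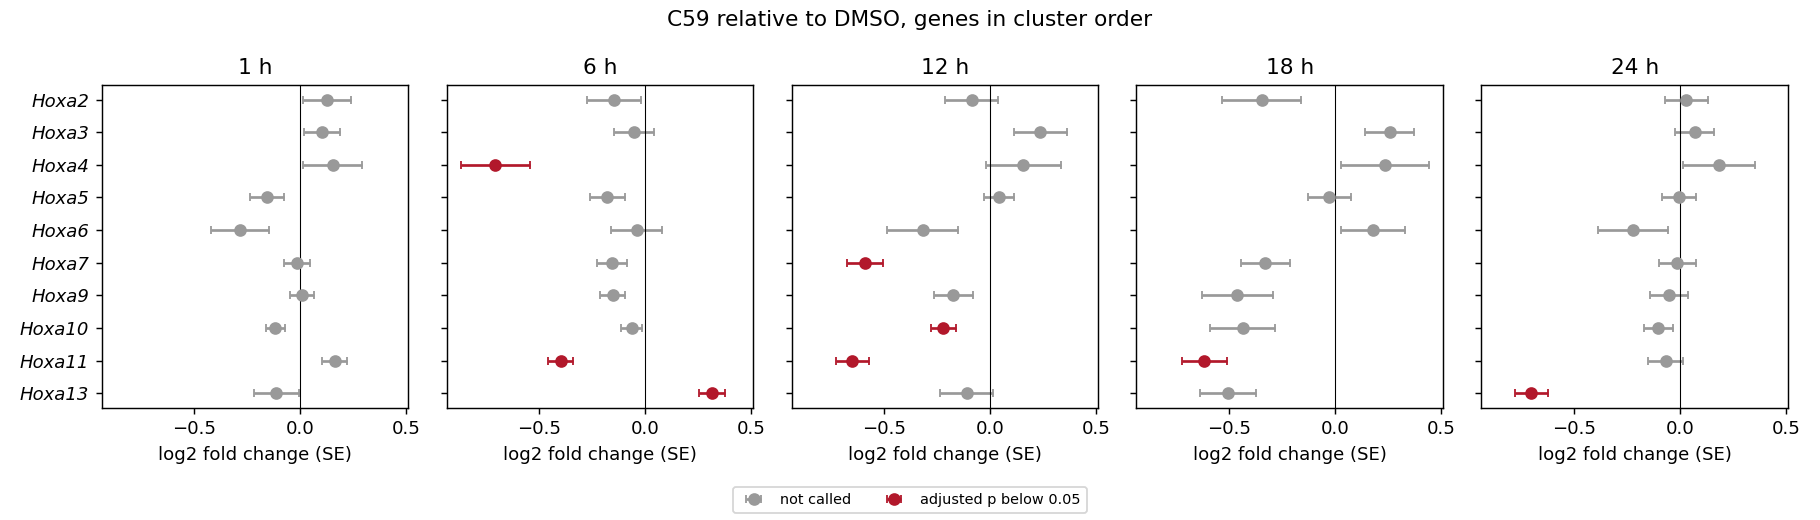
Log2 fold change of C59 against DMSO for the HoxA genes in cluster order at each time point, with bars for the SE. Members with an adjusted p below 0.05 are red: *Hoxa4*, *Hoxa11* and *Hoxa13* at 6 h, *Hoxa7*, *Hoxa10* and *Hoxa11* at 12 h, *Hoxa11* at 18 h and *Hoxa13* at 24 h.

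The effect of C59 itself changed between time points for 4 members. From 6 h to 12 h the effect on *Hoxa7* went from -0.16 to -0.59, a change of -0.44 ± 0.11 on the log2 scale (interaction contrast, adjusted p 0.0114). That on *Hoxa4* went from -0.71 to 0.16, a change of 0.86 ± 0.24 (adjusted p 0.0179), or of 0.51 on log2(FPKM + 1) (limma, adjusted p 0.0424). These were 2 of 10 members, where 18.1% of all genes were called. The call of *Hoxa7* was lost on log2(FPKM + 1), at -0.27 (limma, adjusted p 0.0794). The effect on *Hoxa13* moved by -0.43 ± 0.16 (adjusted p 0.06997) and that on *Hoxa11* by -0.25 ± 0.10 (adjusted p 0.0902), and both were called without C59 12 h replicate 3 (-0.61, adjusted p 0.000533, and -0.33, adjusted p 0.0213).

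From 12 h to 24 h the effect on *Hoxa11* shrank from -0.65 to -0.07, a change of 0.58 ± 0.12 (adjusted p 0.00128). That on *Hoxa7* shrank from -0.59 to -0.01, a change of 0.57 ± 0.12 (adjusted p 0.00188). That on *Hoxa13* grew from -0.11 to -0.70, a change of -0.60 ± 0.16 (adjusted p 0.00870). These 3 of 10 members were called, where 36.9% of all genes were, and all 3 calls held in 22 alternatives. Without C59 12 h replicate 3 the change for *Hoxa13* was -0.40 (adjusted p 0.0135).

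The ratio of *Hoxa13* to *Hoxa11* was also taken within each library. The log2 ratio of their FPKM was -2.44 ± 0.05 (SD, n = 3) in DMSO at 1 h and -0.50 ± 0.07 at 24 h. In C59 it was -0.74 ± 0.05 at 6 h, against -1.43 ± 0.12 in DMSO, and -1.16 ± 0.13 at 24 h. The 3 C59 libraries lay above all DMSO libraries at 6 h and at 12 h (-0.47, -0.29 and -0.13 against -0.92, -0.72 and -0.91) and below all of them at 24 h (-1.30, -1.03 and -1.14 against -0.43, -0.58 and -0.49). At 1 h, when no member was called, they were also below all DMSO libraries (-2.97, -2.56 and -2.52 against -2.42, -2.40 and -2.50). At 18 h the treatments overlapped, at -0.67, -0.68 and -1.11 in C59 and -0.89, -0.53 and -0.62 in DMSO. From CPM, the mean log2 ratio at 18 h was 0.67 in C59 and 0.57 in DMSO, so the order of the treatments at 18 h turned with the scale. The CPM means were positive at 12, 18 and 24 h in both treatments and in C59 at 6 h, where the FPKM means were negative. At 24 h they were 0.78 in DMSO and 0.14 in C59, so which of the genes stood higher also depended on the scale. The differences in this ratio were not tested.

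**Figure D5:**
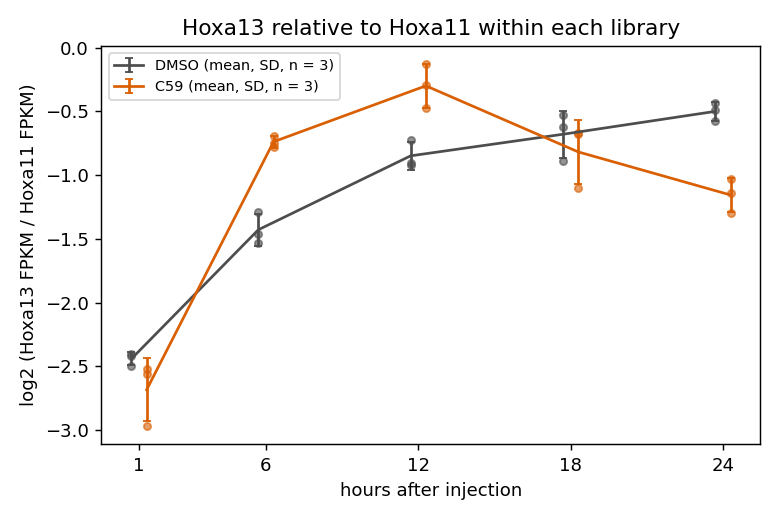
Log2 ratio of *Hoxa13* to *Hoxa11* FPKM within each library against hours after injection, with points for libraries, lines for means and bars for the SD (n = 3). The C59 libraries lie above the controls at 6 h and 12 h and below them at 1 h and 24 h.

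*Hoxa2*, *Hoxa3*, *Hoxa5*, *Hoxa6* and *Hoxa9* were not called between C59 and DMSO at any time. *Hoxa5*, which acts in the lung and axial skeleton, ran from 29.5 to 50.1 CPM over the 30 libraries with log2 fold changes between -0.18 and 0.04. *Hoxa3* ran from 15.3 to 22.5 CPM with log2 fold changes between -0.05 and 0.26, *Hoxa2* from 6.66 to 13.2 CPM with -0.34 to 0.13, and *Hoxa6* from 4.51 to 11.2 CPM with -0.32 to 0.18. The lowest adjusted p of these 4 genes was 0.136. *Hoxa9* had log2 fold changes from -0.46 to -0.05 between 6 h and 24 h, with adjusted p of at least 0.0863.

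Of 6 noncoding transcripts of the cluster, 4 passed the filter on low counts. At 12, 18 and 24 h, 1 of the 4 was called, where 47.5%, 7.08% and 6.44% of the protein-coding genes tested were. The 4 were tested in the fit of the whole table, whose share of called genes is not given here, and the alternatives were not run for them. *Hottip*, known to act with the 5′ HoxA genes, was the one called at 18 h and 24 h. *Hottip* stood at 9.24, 8.81 and 9.24 CPM in DMSO at 18 h and at 5.17, 5.46 and 4.31 CPM in C59, without overlap (log2 fold change -0.86 ± 0.15, adjusted p 0.0130). At 24 h it stood at 6.85, 8.01 and 6.64 CPM against 4.81, 4.31 and 3.87 CPM (log2 fold change -0.72 ± 0.15, adjusted p 0.0185). Like *Hoxa13*, it rose over the day in DMSO, by 2.14 on the log2 scale. At 12 h *Hoxaas3*, whose exons lie opposite those of *Hoxa7* and *Hoxa3*, was lower in C59 by a log2 fold change of -0.51 ± 0.19 (adjusted p 0.0478), at 3.47, 3.20 and 3.39 CPM against 2.37, 2.58 and 2.19 CPM. *Hoxa11os* was not called against the controls at any time, with log2 fold changes from -0.14 to 0.30, while *Hoxa11* on the opposite strand was called at 6, 12 and 18 h.

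Of 6 genes flanking the cluster, *Evx1*, a homeobox gene beyond *Hoxa13* that is expressed in the distal limb bud, was lower in C59 at 6, 12, 18 and 24 h. It stood at 17.4, 17.1 and 22.3 CPM in DMSO at 12 h and at 2.95, 1.86 and 3.63 CPM in C59 (log2 fold change -2.75 ± 0.21, adjusted p 3.28e-06). At 24 h its log2 fold change was -0.77 ± 0.19 (adjusted p 0.0298). It was the 1 of 6 flanking genes called, where 19.6% (6 h), 47.5% (12 h), 7.08% (18 h) and 6.44% (24 h) of all genes were. The other 5 flanking genes were not called against the controls at any time.

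Of 9 HoxD genes, the paralogous cluster of the limb, 1 was called at 6 h (19.6% of all genes) and 1 at 12 h (47.5%). Of the 8 tested at 18 h 2 were called (7.08% of all genes), and 3 of 9 were called at 24 h (6.44%). *Hoxd13*, the paralogue of *Hoxa13*, was lower at 12 h, from 276 ± 21.2 to 185 ± 46.3 CPM (log2 fold change -0.57 ± 0.14, adjusted p 0.00577), while *Hoxa13* was at -0.11. The C59 libraries of *Hoxd13* at 12 h stood at 149, 169 and 238 CPM, with replicate 3 the highest, as for *Hoxa13*. Without that library *Hoxa13* was at -0.30, and *Hoxd13* was not fitted without it. At 18 h and 24 h *Hoxd13* had log2 fold changes of -0.89 ± 0.11 and -0.52 ± 0.08 (adjusted p 0.00328 and 0.00214), beside -0.50 and -0.70 for *Hoxa13*. The difference between the genes was not tested. At 12 h the median log2 fold change was -0.11 for the HoxD genes, -0.14 for the 10 HoxA genes and 0.02 for all genes tested.

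At 12 h, where 47.5% of all genes were called, the counts in the other clusters and among HOX cofactors were not above that share. Of 8 HoxB genes tested, 2 were called, both lower, with *Hoxb2* at -0.96 ± 0.28 (adjusted p 0.0167). Of 9 HoxC genes, 3 were called, from *Hoxc13* at 1.22 ± 0.19 (adjusted p 0.000484) to *Hoxc5* at -0.66 ± 0.09 (adjusted p 0.000161). HOX proteins bind DNA together with cofactors of the TALE class, and of 9 such genes 4 were called at 12 h, 3 higher and 1 lower. Their extremes were *Pknox2* at 0.74 ± 0.10 (adjusted p 0.000189) and *Pknox1* at -0.39 ± 0.05 (adjusted p 0.000200).

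Of 5 genes linked to HOXA13 in limb or genital tissue, all were called at 12 h, where 47.5% of all genes were. Of these, 3 were higher and 2 lower in C59, while *Hoxa13* itself was not called at 12 h (log2 fold change -0.11 ± 0.13). A link between these genes and the *Hoxa13* level was not tested. *Aldh1a2*, which makes retinoic acid, was highest at 1.71 ± 0.22 (adjusted p 0.000102) and *Bmp2*, a BMP ligand of the interdigit mesenchyme, lowest at -0.72 ± 0.11 (adjusted p 0.000468). At 24 h, 2 of the 5 were called, *Bmp7* and *Aldh1a2*, both higher, where 6.44% of all genes were called.

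Over the 10 group means of log2 CPM, the genes most like *Hoxa13* among 12540 were *Zfp148*, *Pdzd2*, *Rab30*, *Hoxd12* and *Cep170* (Pearson r from 0.947 to 0.933). Those most like *Hoxa11* were *Ddx10*, *Mrpl46*, *Tfap2c*, *Haus6* and *Abcf1* (r from 0.995 to 0.989), and those most like *Hoxa5* were *Tmem63b*, *Repin1*, *Gpd1*, *Rpap1* and *Rspo2* (r from 0.962 to 0.938). The 10 points of each correlation share the same libraries and their scaling, and the genes were picked for the highest values out of all genes.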

How the data were processed

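RNA from forelimb buds was sequenced in 30 libraries, which the labels place in 10 groups of 3 replicates, each a separate pair of limb buds. The authors trimmed reads with Cutadapt 1.16, mapped them with STAR 2.7.0e to mm10 using a custom annotation, and deposited raw counts for 50833 genes, none on chromosome X, Y or M, with no normalization. The strand used for counting is not given in the sources used here. The authors also deposited FPKM for 55052 genes, from Cufflinks 2.2.1 in its unstranded mode, corrected for bias and for reads with several hits. The tables were joined by Ensembl identifier, and GENCODE M21 gave gene types for 50628 counted genes. Totals of 18188636 to 38974885 counts per library set the counting error.

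Protein-coding genes of the count table were compared by the two-sided quasi-likelihood F-test of edgeR 4.0.16 (R 4.3.3). Libraries were scaled by TMM, and filterByExpr removed low genes (at least 10 counts in enough libraries, 15 in total), which left all 10 HoxA genes in every comparison. Noncoding transcripts were tested in fits of the whole table. P-values were adjusted by Benjamini-Hochberg over all genes tested, and a gene was called below 0.05. Standard errors came from the F statistic, contrasts of effects from fits of 12 libraries, and CPM from TMM-scaled totals. Deposited FPKM served to compare genes. The fits were tested on simulated data with a fixed spread and with effects larger than any C59 effect on the 10 HoxA genes. Recovery of effects as small as those was not tested.

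All 10 HoxA genes described here are named, with the extremes of each list at 12 h, called noncoding or flanking genes, and the 5 genes most alike to *Hoxa13*, *Hoxa11* and *Hoxa5*. *Bmp7* and *Hoxa11os* were named after their values were seen. The members and lists were chosen with earlier results of these data known. The alternatives were DESeq2 1.42.0 as test or for size factors alone, upper-quartile factors, another or no low-count filter, a fit of the whole table, a joint fit of the 30 libraries, limma 3.58.1 on log2(FPKM + 1) or log2(FPKM + 0.1), a block by replicate number, and the omission of single replicates.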

Additional observations from a re-analysis of the deposited data

Results flagged for a closer look

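The effect of C59 differed between time points or between treatments, by the test of the difference itself (edgeR interaction contrast, Benjamini-Hochberg adjusted p below 0.05), for 4 genes. From 6 h to 12 h the log2 effect on *Hoxa4* changed by 0.86 and that on *Hoxa7* by -0.44. From 12 h to 24 h the effect on *Hoxa7* changed by 0.57, that on *Hoxa11* by 0.58 and that on *Hoxa13* by -0.60. The change from 1 h to 24 h differed between C59 and DMSO for *Hoxa13* by -0.58. *Hoxa4* is read from 72 to 163 counts per library at 6 h and 12 h, and 16.0% of its exon bases lie under exons of the other strand. With 3 libraries in each group, no test for a single outlying library was run.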

How the results depend on the processing

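Of 27 called results of the 10 genes, 19 kept their call in every alternative, and none changed sign. A further 15 results were called in at least 1 alternative only. The count of members called changed by more than 1.5 times as follows. With a log2 fold change beyond 1 it was 0 at 6, 12, 18 and 24 h and in all 3 contrasts of effects, 2 for DMSO and 1 for C59 over the day. At 18 h it was 2 with the DESeq2 test, with upper-quartile factors and with no filter, and 5 with all 30 libraries, against 1. For the change from 6 h to 12 h it was 1 on log2(FPKM + 1) and on log2(FPKM + 0.1), against 2. For the difference of the change over the day it was 0 with all 30 libraries and on both FPKM scales, against 1. Leaving out 1 replicate gave 0 to 1 members at 1 h, 3 to 5 at 6 h, 2 to 5 at 12 h, 0 to 2 at 18 h, 1 at 24 h, 2 to 5 for the change from 6 h to 12 h, 3 for that from 12 h to 24 h, and 0 to 1 for the difference over the day. The change over the day gave 6 to 8 members in DMSO and 5 to 6 in C59. The cause was not tested, except that the added fold condition can only remove calls.

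Same-numbered replicates did not deviate together (correlations from -0.24 to 0.15), so the numbers do not pair the samples. With the replicate block, 0, 3, 4, 1 and 1 members were called at 1, 6, 12, 18 and 24 h, and *Hoxa9* was added at 12 h (log2 fold change -0.17, adjusted p 0.0128). Depth limits *Hoxa4* most, with 69 to 179 counts per library.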
